A study of Sus scrofa with 12 samples.

Results

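Chaperones help other proteins fold. The genes followed here encode the chaperones of the cytosol, the mitochondria and the endoplasmic reticulum (ER) in pig skeletal muscle over the first 3 weeks of life. They were chosen by gene symbol. A probe set (a group of short probes that reads 1 transcript) entered if its symbol began with HSPA, HSP90, HSPD, HSPE, HSPH, DNAJ, PDIA or PFDN, began with CCT and a digit, or was TCP1, MANF, CALR or CANX. This gave 91 probe sets for 53 genes, out of 24123 probe sets on the array. Each gene is represented by its probe set with the highest mean log2 signal over the 12 arrays. That mean level was thus used in the choice and is not a result, whereas differences between ages were not used in it. After dim probe sets (mean signal under 90.3) were left out, 52 of the 53 genes were tested among 14399 probe sets. DNAJC6 was the gene left out, with signals of 1.2 to 63.6. Compartments came from a list drawn up for this report and were not measured. It placed 31 tested genes in the cytosol, 14 in the ER and 6 in mitochondria, and DNAJC24 was assigned to none. The list had no group for the nucleus, and DNAJC8, DNAJC9 and DNAJC17 were counted with the cytosol.

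The samples were skeletal muscle of newborn pigs taken at day 0 (within the first day of life), day 7, day 14 and day 21, with 3 biological replicates per age and 1 Affymetrix array per sample. The labels used here name no breed, sex or muscle, and no treatment. Values are array signals, given for replicates 1, 2 and 3 of each age in that order, and an array is named by its replicate number and age. Changes are differences of mean log2 signal ± SE with n = 3 arrays per age, so -1 is a 2-fold lower signal. The SE is limma's moderated SE. It rests on a spread pooled over all arrays in the fit, not only those of the 2 ages compared. "Fell", "rose" and "called" are used where limma's Benjamini-Hochberg adjusted p over all tested probe sets was under 0.05. Signals of different probe sets are not comparable as levels.

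Newly made proteins meet the Hsp70 chaperones, which bind exposed stretches with the help of J-domain proteins (the DNAJ family) that trigger their ATP use. Hsp90 takes over late folding steps of kinases, receptors and, in muscle, myosin. The chaperonins are closed barrels. TRiC folds actin and tubulin in the cytosol, with prefoldin handing over the chains, and Hsp60 with its lid Hsp10 folds imported proteins in mitochondria. In the ER, BiP and GRP94 (an Hsp70 and an Hsp90), the lectins calnexin and calreticulin and the protein disulfide isomerases fold secreted and membrane proteins.

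The arrays share a trimmed mean of 500.1, and their medians ran from 146.2 to 172.6. The day 0 arrays stood apart from the later ones in the controls. For the spiked-in poly-A RNAs, the log2 ratio of 3' over 5' probe sets was 0.37 to 0.67 at the later ages and 0.66 to 1.59 at day 0, highest in replicate 2. The mean log2 signal of 27 hybridization control probe sets was 12.4 to 12.8 at the later ages and 12.1 to 12.3 at day 0. All 21 skeletal muscle marker genes with a probe set passed the filter, and their summed signal was 456647 to 642322 at day 0, 632924 to 742011 at day 7, 728991 to 792190.0 at day 14 and 719079 to 894022 at day 21. The summed signals of 10 endothelial markers were 6142 to 6987 at day 0, 9847 to 11020.4 at day 7, 9579 to 10568 at day 14 and 7262 to 10760.4 at day 21, and those of 10 macrophage markers 2667 to 3886 at day 0, 4141 to 6235 at day 7, 4512 to 8841 at day 14 and 3400.4 to 6827 at day 21. Day 21 sums lay above all day 0 sums for the muscle and endothelial markers and overlapped them for the macrophage, erythroid, lymphocyte, fibroblast and adipocyte markers. Sums are led by the brightest probe sets, and single markers differed in direction. Of the muscle markers 4 rose and 2 fell at day 7 (5.76% and 3.64% of all probe sets), and 11 rose and 0 fell at day 21 (6.61% and 4.90%). Of the endothelial markers 3 rose and 1 fell in each of these contrasts with day 0. In bulk tissue, fewer cells of a type and less RNA per cell cannot be told apart, and the part of the marker levels in the results below was not tested.

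Chaperone signals were higher at birth than later in all 3 compartments, though not in every day 0 array. By the median deviation of genes from their 12-array means, all 3 day 0 arrays lay above all later ones in mitochondria and the ER. In the cytosol day 0 replicates 1, 2 and 3 were at 0.70, 0.32 and 0.0015, the last below day 7 replicate 1 at 0.085. Of the 52 genes, 47 had their highest signal of the 12 arrays in a day 0 array, which is 90.4% of them, against 40.3% of all tested probe sets. The day 0 arrays shared this unequally. Replicate 1 held 30 of these maxima (57.7% of the genes, against 16.1% of all probe sets), replicate 2 held 12 (23.1% against 14.6%) and replicate 3 held 5 (9.62% against 9.68%). Between day 0 and day 21, 21 genes fell and 0 rose. Falls made up 40.4% of the chaperone genes, where 4.90% of all probe sets fell and 6.61% rose (11.5% called in all). The direction was negative in 44 of 52 genes, against 48.5% of all probe sets and 51.5% of the 5296 tested genes taken at 1 probe set each. Shares of calls are given over all probe sets only. In 26 genes all 3 day 21 values lay below all 3 day 0 values, as they did in 13.7% of all probe sets. The median change was -0.65, against 0.02 over all probe sets. By compartment the median was -0.76 in mitochondria with 4 of 6 genes falling, -0.66 in the ER with 6 of 14, and -0.53 in the cytosol with 11 of 31. The order of the compartments was not stable. Averaged over all probe sets of each gene, dim ones included, the medians were -0.42, -0.42 and -0.57. Without day 0 replicate 1 they were -0.66, -0.71 and -0.39.

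**Figure D1:**
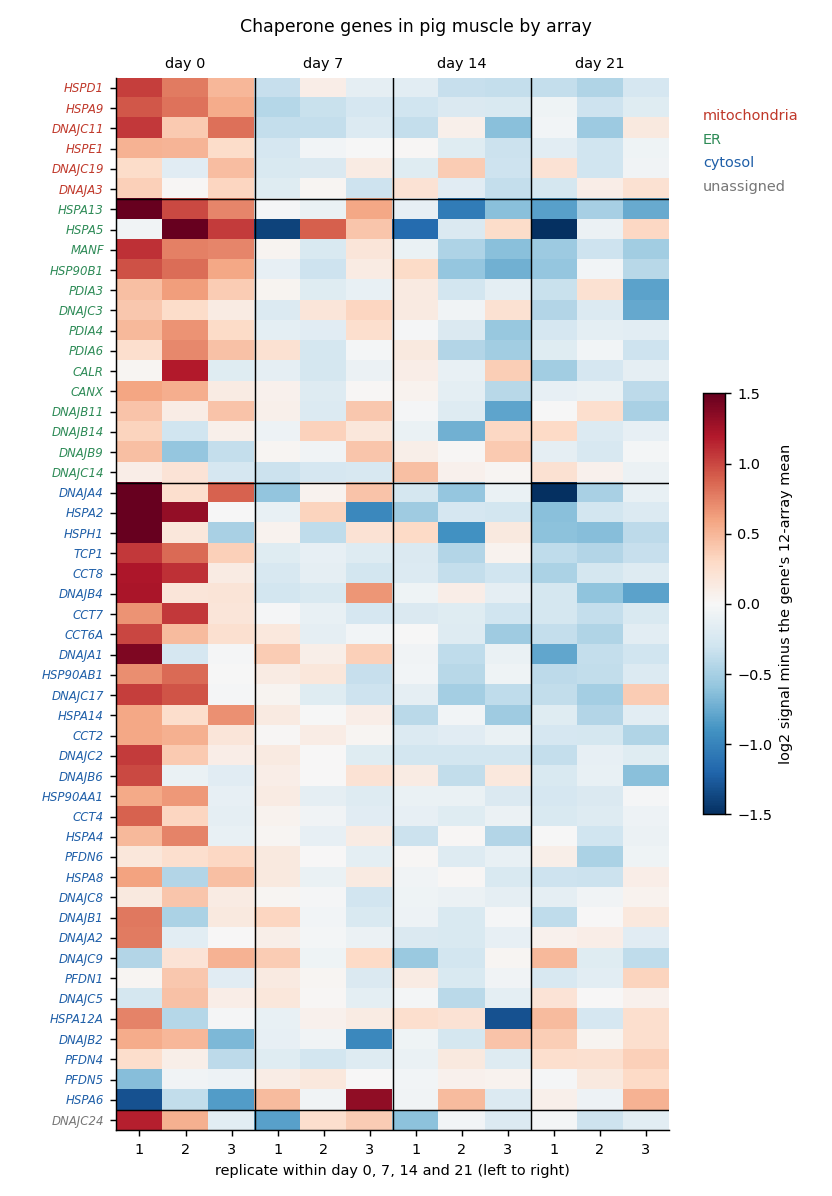
Log2 signal of the 52 tested chaperone genes in each of the 12 arrays, minus the gene's mean over the arrays. Columns are replicates 1 to 3 of days 0, 7, 14 and 21 and rows are genes, coloured by compartment and ordered within it by the day 21 minus day 0 change. Red cells crowd into the day 0 columns, where 47 of the 52 genes have their highest value.

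By the median changes, most of the fall lay in the first week, and lower means went on into the second. At day 7, 10 genes fell and 1 rose, where 3.64% of all probe sets fell and 5.76% rose (9.40% called in all). The direction was negative in 47 of the 52 genes, against 50% of all probe sets and 53.0% of all tested genes at 1 probe set each. In 19 genes all 3 day 7 values lay below those of day 0, against 13.7% of all probe sets. The median change was -0.44. From day 7 to day 14 no chaperone gene was called (0.00694% of all probe sets), with 2 at an unadjusted p under 0.05 (5.95% of all probe sets) and a median of -0.13. The direction of this step was negative in 43 of the 52 genes, against 48.4% of all probe sets. From day 14 to day 21 none was called either (0% of all probe sets), with 1 at an unadjusted p under 0.05 (3.03% of all probe sets) and a median of -0.01. Here 29 of the 52 genes were lower, against 48.7% of all probe sets. Of the 21 genes that fell by day 21, 11 were not called at day 7. Over the 4 ages together the F test called 13 genes, or 25% of them, against 8.88% of all probe sets. Both contrasts with day 0 use the same 3 day 0 arrays and are set side by side here, not as independent evidence.

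Single arrays moved these counts. The F test called 5 genes without day 0 replicate 1 and 7 without day 0 replicate 2. For day 7 the count of 11 became 4, 6 and 19 without day 0 replicates 1, 2 and 3, and 4, 4 and 5 without day 7 replicates 1, 2 and 3. For day 21 the count of 21 became 13 without day 0 replicate 1 and 13 without either of day 21 replicates 1 and 2. When the spike ratio of each array was added to the fit (the poly-A covariate) the counts were 4 in the F test, 1 at day 7 and 14 at day 21. In that fit 1.49% of all probe sets were called by the F test, 1.54% at day 7 and 6.58% at day 21. It ended 8 day 21 calls, on genes whose changes in it were -0.53 ± 0.15 for HSPE1, -1.19 ± 0.47 for HSPA2, -0.68 ± 0.24 for HSP90AB1, -1.23 ± 0.34 for DNAJB4, -0.82 ± 0.26 for DNAJC2, -0.74 ± 0.26 for PDIA3, -0.51 ± 0.21 for PDIA4 and -0.54 ± 0.20 for CANX, each with a larger SE than without the covariate. When the hybridization controls set the scale of each array, and the median over all probe sets moved by -0.31 at day 7 and -0.38 at day 21, the counts were 28, 24 and 32, all of the last 2 counts being falls. On that scale 14.6% of all probe sets were called by the F test, and 11.4% fell at day 7 and 17.3% at day 21.

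**Figure D2:**
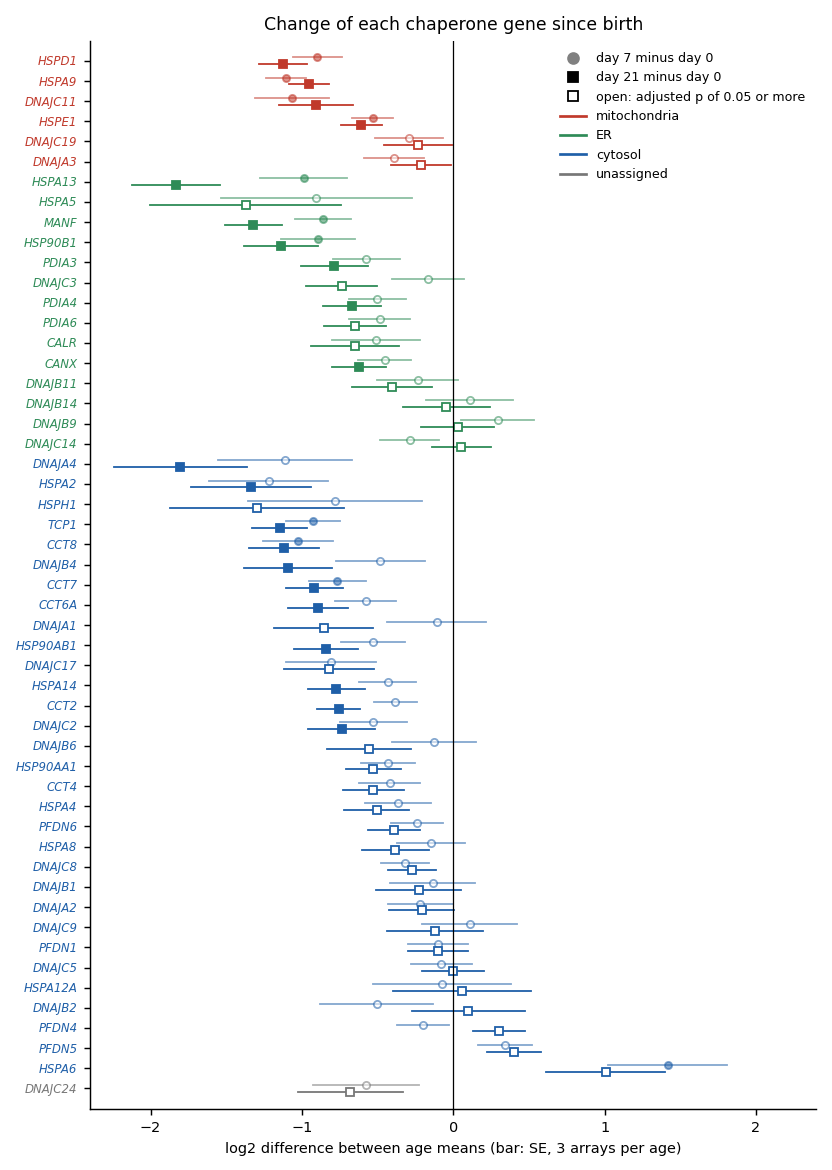
Change of each tested chaperone gene at day 7 (circles) and day 21 (squares) relative to day 0, as the log2 difference between age means. Bars are limma's moderated SE, pooled over all arrays. Filled symbols passed the adjusted p of 0.05; among them only HSPA6 at day 7 lies right of 0, and the filled day 21 squares run from -0.61 (HSPE1) to -1.83 (HSPA13).

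In mitochondria 4 of 6 chaperones fell within the first week (3.64% of all probe sets), and no later step was called. HSPA9, the mitochondrial Hsp70 (mortalin) that pulls proteins through the inner membrane and folds them, had signals of 16353, 15139 and 12632 at day 0, 6399.7, 6834 and 7198 at day 7, 7007, 7408 and 7358 at day 14 and 8198, 6954 and 7559 at day 21. Its day 0 arrays lay above the other 9, with changes of -1.10 ± 0.13 at day 7 (limma adjusted p = 0.000982) and -0.95 ± 0.13 at day 21 (0.00136). The later weekly steps were 0.09 and 0.06. HSPD1, the Hsp60 chaperonin, had signals of 16945, 14129 and 11642 at day 0, 6511, 8811 and 7498 at day 7, 7393, 6466 and 6459 at day 14 and 6419, 6022 and 6949 at day 21. Again no later array reached a day 0 array, with changes of -0.90 ± 0.16 (0.00583) and -1.13 ± 0.16 (0.00144). HSPE1, the Hsp10 lid, had signals of 22088, 21945 and 18619 at day 0, 12890.2, 15021 and 15374 at day 7, 15607, 13539 and 12325 at day 14 and 13818, 12546 and 14683 at day 21. It followed the same course with smaller differences of -0.53 ± 0.13 (0.0284) and -0.61 ± 0.13 (0.0125).

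Among the mitochondrial J-domain proteins only DNAJC11, a protein linked to the outer membrane and the cristae, was called. Its signals were 1105, 697 and 942 at day 0, 414, 416 and 460.2 at day 7, 414, 561 and 345 at day 14 and 515, 365 and 587 at day 21. The day 0 values lay above the rest, with changes of -1.06 ± 0.24 at day 7 (0.0189) and -0.91 ± 0.24 at day 21 (0.0296). DNAJA3, the J-domain partner of HSPA9, was at -0.39 ± 0.20 (0.245) and -0.21 ± 0.20 (0.529), and DNAJC19, a part of the import motor, at -0.29 ± 0.22 (0.445) and -0.23 ± 0.22 (0.542). A difference between called and uncalled members was not tested. The second HSPA9 probe set fell by 1.38 at day 7 and 1.17 at day 21. The third was at -0.86 and -0.76 and was not called. Leaving out 1 array ended no call on HSPA9 or HSPD1. The day 7 call on HSPE1 was lost without array 1 or 2 of day 0 or any 1 day 7 array (changes of -0.45 to -0.58, adjusted p 0.0568 to 0.114). The day 7 call on DNAJC11 was lost without array 1 of day 0 or array 1 or 2 of day 7 (changes of -0.92 to -1.04, adjusted p 0.0538 to 0.0650), and its day 21 call without array 1 or 3 of day 0 or array 1 or 2 of day 21 (changes of -0.71 to -0.96, adjusted p 0.0559 to 0.10). Averaged over both its probe sets, of which the other has a mean signal of 52.6, DNAJC11 was at -0.58 and -0.21.

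Several listed partners of these proteins fell too. Of 10 tested genes of mitochondrial folding and quality control, 6 fell at day 7 and 0 rose (3.64% and 5.76% of all probe sets), and 4 fell at day 21 (4.90%), with medians of -0.57 and -0.56. PHB2, a prohibitin that forms a scaffold in the inner membrane, was at -1.25 ± 0.18 and -0.87 ± 0.18. TIMM44, which tethers HSPA9 to the import channel, was at -1.21 ± 0.26 and -0.92 ± 0.26, and PMPCB, which cuts off import signals, at -0.52 ± 0.13 and -0.50 ± 0.13. Adjusted p-values of these 3 genes ran from 0.00187 to 0.0370. TRAP1, the mitochondrial Hsp90, was at 0.18 ± 0.18 (0.589) and 0.03 ± 0.18 (0.929).

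**Figure D3:**
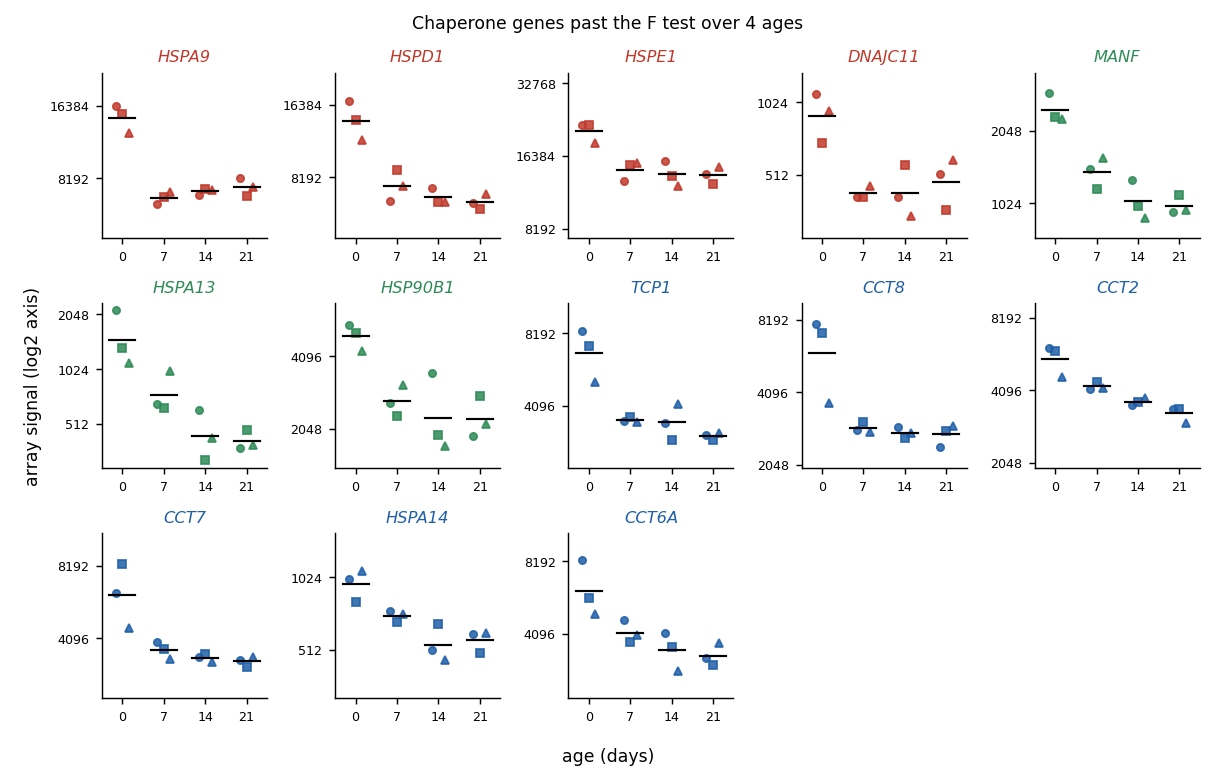
Array signal of the 13 chaperone genes past the F test, on log2 axes scaled per gene. Circles, squares and triangles are replicates 1, 2 and 3 at each age in days and black bars are means of log2 signal. Mitochondrial genes (red) drop between days 0 and 7 with small later steps, ER genes (green) go on to lower means at day 14, and TRiC genes and HSPA14 (blue) have their lowest means at day 14 or 21.

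In the ER, 3 genes passed the F test, all by falls, and their means were lower again at day 14, although no later step was called. MANF, a secreted and ER-resident protein induced when proteins misfold there, had signals of 2951, 2327 and 2287 at day 0, 1425, 1173 and 1571 at day 7, 1282, 1002 and 889.5 at day 14 and 943, 1113 and 959 at day 21. Its day 0 values exceeded all later ones, with changes of -0.86 ± 0.19 at day 7 (adjusted p = 0.0149) and -1.32 ± 0.19 at day 21 (0.00139), with a step of -0.40 in the second week. HSPA13, an Hsp70-like protein of microsomes, had signals of 2155, 1332 and 1111 at day 0, 658, 623 and 996 at day 7, 613, 323 and 431 at day 14 and 378, 474 and 394 at day 21. Of the 52 genes it had the most negative day 21 change, -1.83 ± 0.29 (0.00237), after -0.99 ± 0.29 at day 7 (0.0482) and a second-week step of -0.75. HSP90B1, the ER Hsp90 GRP94, had signals of 5544, 5134 and 4292 at day 0, 2627, 2319 and 3119 at day 7, 3498, 1927 and 1734 at day 14 and 1915, 2793 and 2145 at day 21. No later array reached its day 0 range, and it changed by -0.90 ± 0.25 (0.0389) and -1.14 ± 0.25 (0.0110).

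The second probe set of HSP90B1 fell at day 21 (-1.12), and so did that of HSPA13 (-1.71). The day 21 calls on MANF, HSPA13 and HSP90B1 held without any 1 array. At day 7 that on MANF was lost without array 2 of day 7 (change -0.74, adjusted p = 0.0700). That on HSP90B1 was lost without array 1 or 2 of day 0, any 1 day 7 array or array 3 of day 21 (changes of -0.79 to -1.01, adjusted p 0.0514 to 0.131), and that on HSPA13 without 9 of the 12 arrays in turn, the exceptions being array 3 of day 0 and arrays 1 and 2 of day 14 (changes of -0.71 to -1.2, adjusted p 0.0514 to 0.160).

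BiP itself was not called. HSPA5 (BiP), the main ER Hsp70 and the sensor partner of the unfolded protein response, had signals of 3146, 10312 and 6758 at day 0, 1248, 6103 and 4384 at day 7, 1466, 2824 and 3971 at day 14 and 1015, 3073 and 4051 at day 21. Replicate 1 was the lowest of its age at all 4 ages, and within each age the values spread by 3-fold or more except at day 14. Its change of -1.37 ± 0.63 at day 21 did not pass (0.179). With the replicate number as a block it did (0.00846), but the labels do not say that equal numbers share a litter or a day. Without array 1 of day 21 the change was -0.77. Over all alternatives its adjusted p ran from 0.00846 to 0.512.

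The disulfide isomerases, which form and rearrange disulfide bonds, were lower at both ages in 3 of 3 genes. All 3 had every day 7 and day 21 value below every day 0 value. Of all probe sets, 50.0% were lower at day 7 and 48.5% at day 21. At either age 13.7% had all 3 values below those of day 0. PDIA3, which works with the lectins on glycoproteins, had signals of 2671, 3031 and 2539 at day 0, 2006, 1719 and 1805 at day 7, 2143, 1619.6 and 1768 at day 14 and 1556, 2294 and 1125 at day 21. PDIA4 had signals of 1284, 1461 and 1118 at day 0, 826, 818 and 1096 at day 7, 907, 788 and 617 at day 14 and 769, 826 and 821 at day 21. Both fell by day 21, PDIA3 by 0.79 ± 0.22 (0.0368) and PDIA4 by 0.67 ± 0.19 (0.0382), while PDIA6 was at -0.65 ± 0.20 (0.0559). Other probe sets of PDIA3 were at -0.09 and -0.02 and were not called. CANX, the membrane lectin calnexin, had signals of 3617, 3501 and 2620.0 at day 0, 2519, 2100.4 and 2442 at day 7, 2492, 2179 and 1810.1 at day 14 and 2209, 2243 and 1834 at day 21. It too fell by day 21, by 0.62 ± 0.18 (0.0374), with no overlap between the ages. CALR, its soluble relative calreticulin, had signals of 977, 2199.7 and 848 at day 0, 874, 802 and 901 at day 7, 1031, 891 and 1243 at day 14 and 671, 809 and 872 at day 21. Day 0 replicate 2 stood 2.25-fold above the next day 0 array and CALR did not pass at day 21 (-0.65 ± 0.29, 0.167), with -0.22 without that array and a call on the hybridization control scale alone (0.0285).

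These calls on PDIA3, PDIA4 and CANX lay close to the threshold. That on PDIA3 was lost without array 1 or 2 of day 0, array 2 or 3 of day 7, or array 1 or 3 of day 21 (changes of -0.54 to -0.80, adjusted p 0.0514 to 0.148). That on PDIA4 was lost without 8 arrays in turn, the exceptions being array 3 of day 0, array 3 of day 7 and arrays 1 and 3 of day 14 (changes of -0.57 to -0.69, adjusted p 0.0503 to 0.112), and that on CANX without 9 arrays, the exceptions being array 3 of day 0 and arrays 1 and 3 of day 14 (changes of -0.53 to -0.67, adjusted p 0.0501 to 0.142). Averaged over all probe sets of the gene, the changes became -0.30 for PDIA3, -0.17 for PDIA4 and -0.37 for CANX, none of them called. With the poly-A covariate the 3 calls were lost too, at changes of -0.74 ± 0.26, -0.51 ± 0.21 and -0.54 ± 0.20.

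The ER J-domain proteins had 0 calls among 5 genes in either contrast. Of all probe sets 9.40% were called at day 7 and 11.5% at day 21. DNAJC3, which also restrains the kinase PERK, was at -0.17 ± 0.24 (0.711) and -0.74 ± 0.24 (0.0606), with all day 21 values below those of day 0. At day 21 it passed with quantile normalization (0.0408), median centring (0.0373), the hybridization control scale (0.0204) and no variance trend (0.0433), and was -0.43 averaged over its probe sets. DNAJB9, DNAJB11, DNAJB14 and DNAJC14 lay between -0.40 and 0.05 at day 21.

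Of 24 tested ER folding partners outside the chaperone set, 3 fell and 0 rose at day 21 (4.90% and 6.61% of all probe sets), with a median of -0.28. HYOU1, the large ER Hsp70 relative that renews ATP on BiP, had signals of 722, 950.0 and 719 at day 0, 321, 361 and 425 at day 7, 434, 329 and 295 at day 14 and 295, 348 and 378 at day 21. Its day 0 values lay above all later ones, with changes of -1.11 ± 0.21 (0.00805) and -1.22 ± 0.21 (0.00379). TMX1, a membrane-bound thioredoxin, was at -0.56 ± 0.15 (0.0288). Of 14 genes of the unfolded protein response and ER-associated degradation, 3 fell and 1 rose at day 21, against the same shares. SELENOS, a degradation factor, was at -1.03 ± 0.20 (0.00656), and VCP, the ATPase that extracts proteins from the ER, at -0.78 ± 0.20 (0.0244). ATF4, a transcription factor made under amino acid shortage and ER stress, was the gene that rose, with signals of 10103, 3933 and 4218 at day 0, 11935, 7458 and 7798 at day 7, 12125, 13027 and 14688 at day 14 and 15278, 14746 and 16974 at day 21. It had a change of 1.5 ± 0.29 (0.00663), opposite in sign to those of the ER chaperones called. XBP1, the transcription factor of the IRE1 branch (named after its value was seen), was at -0.55 ± 0.23 (0.136). EDEM2, which marks glycoproteins for degradation, rose by 0.64 ± 0.17 at day 7 (0.0364) and was at 0.42 ± 0.17 at day 21 (0.133).

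The cytosolic chaperonin TRiC was the family with the most calls in the cytosol. All 6 measured subunit genes had lower means at each later age than at the age before. By day 21, 5 of the 6 fell (4.90% of all probe sets). TCP1, the alpha subunit, had signals of 8399, 7255 and 5169 at day 0, 3533, 3687 and 3520.0 at day 7, 3469.6, 2966 and 4167 at day 14 and 3089.6, 2959.7 and 3171 at day 21. No later array reached a day 0 array, with changes of -0.93 ± 0.18 at day 7 (adjusted p = 0.00885) and -1.15 ± 0.18 at day 21 (0.00237). CCT8, the theta subunit, had signals of 7845, 7222 and 3689.7 at day 0, 2865, 3086 and 2807 at day 7, 2945, 2644 and 2759 at day 14 and 2433, 2823 and 2970.1 at day 21. The groups were again apart, although day 0 replicate 3 stood well below the other 2 day 0 arrays, and the changes were -1.02 ± 0.23 (0.0175) and -1.12 ± 0.23 (0.00853).

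CCT7, the eta subunit, had signals of 6352, 8347 and 4535 at day 0, 3941, 3693 and 3359 at day 7, 3424, 3535 and 3260.2 at day 14 and 3339.5, 3119 and 3416 at day 21. It fell by 0.77 ± 0.19 at day 7 (0.0244) and by 0.92 ± 0.19 at day 21 (0.00816). CCT2, the beta subunit, had signals of 6132, 5950.1 and 4656 at day 0, 4142, 4434 and 4169 at day 7, 3551, 3639.5 and 3816 at day 14 and 3432, 3424 and 2997 at day 21. Its course was more gradual, with -0.38 ± 0.14 at day 7 (0.107), weekly steps of -0.21 and -0.16, and -0.76 ± 0.14 at day 21 (0.00555). CCT6A, the zeta subunit, had signals of 8308, 5767 and 4920.1 at day 0, 4645, 3788 and 4026 at day 7, 4139, 3617 and 2859 at day 14 and 3239, 3036 and 3732 at day 21. It too passed at day 21 only (-0.58 ± 0.20, 0.0890, and -0.89 ± 0.20, 0.0132). CCT4, the delta subunit, was at -0.53 ± 0.20 (0.105). In the 5 subunit genes other than CCT4, all day 21 values lay below all day 0 values (13.7% of all probe sets). Their day 21 calls held without any 1 array. That on CCT6A was lost with its probe sets averaged (-0.69, 0.109), of which the dimmest has a mean signal of 109. At day 7 those on CCT7 (changes of -0.55 to -0.82, adjusted p 0.0511 to 0.0847) and CCT8 (changes of -0.82 to -1.07, adjusted p 0.0501 to 0.0629) were each lost without array 1 or 2 of day 0 or any 1 day 7 array.

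Prefoldin, which delivers chains to TRiC, was not called in any of 4 genes, where 9.40% of all probe sets were called at day 7 and 11.5% at day 21. PFDN6 was at -0.39 ± 0.17 at day 21 (0.154) and PFDN5 at 0.40 ± 0.18 (0.165), each without overlap between day 21 and day 0 and in opposite directions. PFDN1 was at -0.10 ± 0.20 and PFDN4 at 0.30 ± 0.17. On the scale of the hybridization controls PFDN5 was at 0.02, PFDN4 at -0.08 and PFDN6 at -0.77, where it passed (0.0131). The difference between TRiC and prefoldin was not tested. Of 7 genes that act beside them on tubulin and actin, 0 were called in either contrast, with a median of -0.02 at day 21 and, at an unadjusted p under 0.05, 0 genes at day 7 and 1 at day 21 (25.1% and 27.6% of all probe sets).

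Among the cytosolic Hsp90 genes HSP90AB1, the constitutive form, had signals of 18207, 20088 and 11165 at day 0, 12143, 12625 and 8803 at day 7, 10883, 8392 and 10688 at day 14 and 8527, 8645 and 9666 at day 21. It fell by day 21, by 0.84 ± 0.21 (0.0226), and its day 21 values lay below all day 0 values. HSP90AA1, the inducible form, had signals of 21343, 22503 and 13258 at day 0, 15677, 13153 and 12606 at day 7, 13461, 13446 and 12361 at day 14 and 12114, 12353 and 14161 at day 21. Day 0 replicate 3 lay among the later arrays and the gene did not pass (-0.53 ± 0.18, 0.0747). Without that array it did (-0.77, 0.00298), as it did with quantile normalization (0.0433) and on the hybridization control scale (0.00539). One of its 4 other probe sets fell at both ages (-1.11 and -0.95), and the other 3 were not called. The call on HSP90AB1 was lost without array 1 or 2 of day 0 or any 1 day 21 array (changes of -0.67 to -0.90, adjusted p 0.0527 to 0.0820), and with the poly-A covariate.

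The main cytosolic Hsp70 was not called. HSPA8, the constitutive Hsc70, had signals of 27554, 13435 and 24829 at day 0, 20076, 17001 and 19873 at day 7, 17532, 18378 and 15514 at day 14 and 14675, 14530.4 and 19461 at day 21. The ages overlapped and the change at day 21 was -0.38 ± 0.22 (0.291). Without day 0 replicate 2 that change passed (-0.70, 0.0213), and so it did with the poly-A covariate (-0.72, 0.0469) and on the hybridization control scale (-0.76, 0.0281). It was -0.18 (0.650) without day 0 replicate 1 and -0.13 (0.764) averaged over its probe sets. That average is made up mostly of dim probe sets, with mean signals of 106 to 125 against 18168 for the chosen one. HSPA14, a ribosome-bound Hsp70 relative, had signals of 1004, 809 and 1083 at day 0, 741, 669.8 and 719.9 at day 7, 509.8, 654 and 466 at day 14 and 592, 495 and 602 at day 21. It fell by 0.77 ± 0.19 at day 21 (0.0186), a call lost without array 2 of day 21 (change -0.68, adjusted p = 0.0610). HSPA2, best known from testis, had signals of 739, 608 and 245 at day 0, 226, 308 and 125 at day 7, 169.6, 206 and 202 at day 14 and 158, 203 and 213 at day 21. It fell by 1.34 ± 0.40 (0.0443), and the call was lost without 9 arrays in turn, the exceptions being array 3 of day 0 and arrays 2 and 3 of day 7 (changes of -1.02 to -1.42, adjusted p 0.0557 to 0.139).

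HSPA6, annotated as the strictly inducible Hsp70, ran the other way. Its signals were low, 52.8, 101 and 73.2 at day 0, 181, 126 and 329 at day 7, 126, 182 and 113 at day 14 and 138, 123 and 188 at day 21. Its day 0 mean of 75.8 lies under the filter limit of 90.3, so it was tested only through its later values. All later arrays lay above all day 0 arrays, with a rise of 1.42 ± 0.39 at day 7 (0.0405) and a change of 1.01 ± 0.39 at day 21 (0.115). The rise was 1.13 after 29.7 was added to all signals, and the call was lost without array 1 or 3 of day 0, array 1 or 3 of day 7, array 1 of day 14 or array 1 or 3 of day 21 (changes of 1.04 to 1.48, adjusted p 0.0502 to 0.159), and with no filter on dim probe sets or another normalization. Inducible Hsp70 genes are close relatives, so a probe set may read more than 1 of them. In the Hsp110 family, which swaps the nucleotide on Hsp70, HSPA4 was at -0.51 ± 0.22 (0.149) and its second probe set fell by 1.02.

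Some cytosolic genes stood high in 1 day 0 array. In day 0 replicate 1, 5 genes stood at least 2-fold above both other day 0 arrays, which is 9.62% of the 52 genes, against 2.57% of all probe sets. Day 0 replicate 2 had 1 such gene, the ER gene CALR (1.92% of the genes, against 0.764% of all probe sets). Replicate 3 had 0, against 2.31% of all probe sets. HSPH1, the inducible Hsp110, had signals of 6516, 1237 and 788 at day 0, 1148, 847 and 1279 at day 7, 1353, 586 and 1224 at day 14 and 719, 708 and 841 at day 21. The value in day 0 replicate 1 was 5.27-fold above the next day 0 array, and the change of -1.30 ± 0.57 at day 21 did not pass (0.162). It was -0.39 without that array, and -1.91 without day 0 replicate 3, where it passed (0.0335). DNAJA1, the main J-domain partner of Hsc70, had signals of 7040.2, 2239.8 and 2636 at day 0, 3449, 2816 and 3412 at day 7, 2568, 2036 and 2486 at day 14 and 1551, 2078 and 2168 at day 21. Here replicate 1 was 2.67-fold above the next, with -0.86 ± 0.33 at day 21 (0.108), -0.35 without that array and -1.17 without day 0 replicate 2, where it passed (0.0471). DNAJA4, a relative abundant in muscle, had signals of 7668, 2142 and 3322 at day 0, 1196, 1861 and 2422 at day 7, 1502, 1203 and 1676 at day 14 and 600.0, 1285 and 1659.6 at day 21.

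DNAJA4 fell by 1.8 ± 0.44 at day 21 (0.0195), with the ages apart, and the call was lost without array 1 of day 0 or array 1 of day 21 (changes of -1.30 to -1.38, adjusted p 0.0595 to 0.0831). DNAJB4, an Hsp40 of the heat shock response, had signals of 13212, 6376 and 6449.5 at day 0, 4648, 4823 and 8904 at day 7, 5375, 6052 and 5149 at day 14 and 4689, 3693 and 3230.4 at day 21. It fell by 1.09 ± 0.29 (0.0288), a call lost without array 1 of day 0 or array 2 or 3 of day 21 (changes of -0.75 to -1.07, adjusted p 0.0686 to 0.106). DNAJB6, which holds back aggregation and is mutated in a human limb-girdle muscular dystrophy, was the fifth such gene, with 2329 in replicate 1 against 1096 and 1043 in replicates 2 and 3 of day 0, and -0.56 ± 0.28 at day 21 (0.213). DNAJB1, the classic heat shock Hsp40, had 1029 in that array against 427 and 659. Its change was -0.23 ± 0.28 at day 21 (0.645) and 0.09 without day 0 replicate 1. Without that array HSPH1 was at 0.12 and DNAJA1 at 0.40 at day 7, against -0.78 ± 0.57 and -0.11 ± 0.33 with all arrays.

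**Figure D4:**
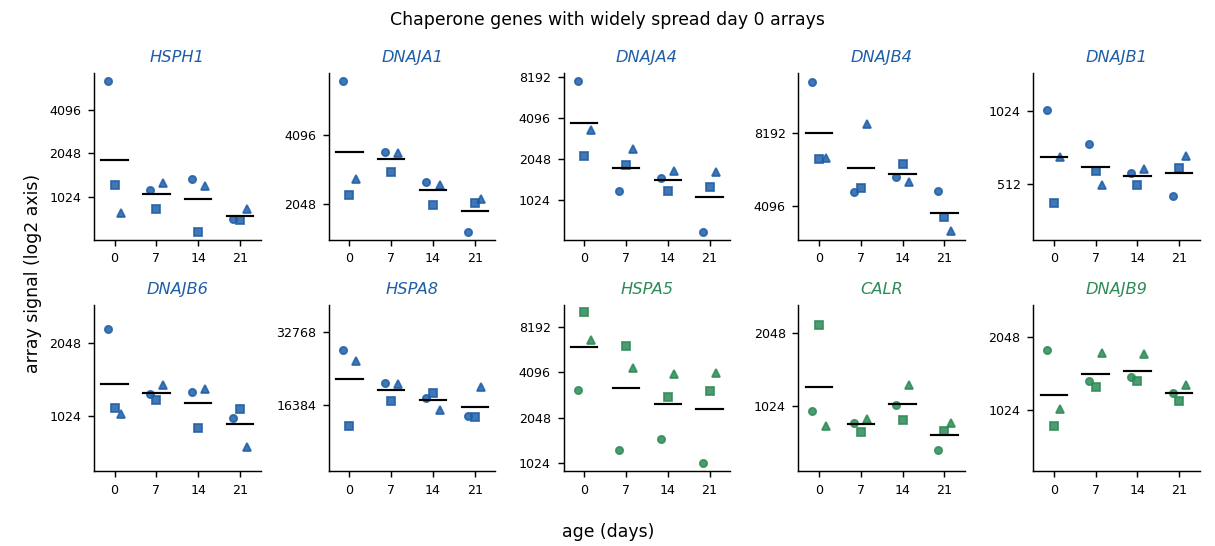
Array signal of 10 chaperone genes whose values spread widely, on log2 axes scaled per gene, with circles, squares and triangles for replicates 1, 2 and 3 at each age in days and black bars for means of log2 signal. Day 0 replicate 1 stands at least 2-fold above the other day 0 arrays in HSPH1, DNAJA1, DNAJA4, DNAJB4 and DNAJB6, day 0 replicate 2 does so in CALR, and replicate 1 is the lowest of its age in HSPA5 at all 4 ages.

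Of the other J-domain genes of the cytosol, DNAJC2, a ribosome-bound partner of HSPA14, fell by 0.74 ± 0.22 at day 21 (0.0481). It was named after its value was seen, and the call was lost without any 1 array other than array 3 of day 0 (changes of -0.47 to -0.80, adjusted p 0.0590 to 0.142). In all, 3 of 12 tested cytosolic J-domain genes fell at day 21 (4.90% of all probe sets) and 0 at day 7 (3.64%). Their day 21 range was -1.8 to 0.10.

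Some co-chaperones of Hsp70 and Hsp90 in the cytosol also fell. Of 22 tested genes, 5 fell and 0 rose at day 7 (3.64% and 5.76% of all probe sets) and again at day 21 (4.90% and 6.61%), 20 were lower at day 21 (48.5% of all probe sets), and the median was -0.42. HSPBP1, which releases nucleotide from Hsp70, had signals of 929, 644 and 510.3 at day 0, 255, 267 and 189 at day 7, 169, 202 and 221 at day 14 and 211, 189.5 and 169 at day 21. Its day 0 values lay above all later ones, with -1.52 ± 0.25 (0.00381) and -1.83 ± 0.25 (0.00129). FKBP4, an Hsp90 partner in steroid receptor complexes, was at -0.98 ± 0.19 (0.00658), STIP1 (Hop), which links Hsp70 to Hsp90, at -1.0 ± 0.19 (0.00610), and the cyclophilin PPID at -0.88 ± 0.20 (0.0165). UNC45B, the Hsp90 partner that folds muscle myosin (named after its value was seen), was at -0.08 ± 0.22 (0.843). Of the 3 heat shock factor genes measured, HSF1, the main activator of heat shock genes, fell at day 7 (-1.0 ± 0.23, 0.0197) and was at -0.59 ± 0.23 at day 21 (0.115). HSF2 was at -0.76 ± 0.32 at day 7 (0.157) and fell by day 21 (-1.06 ± 0.32, 0.0486). HSF1 and HSF2 were named after their values were seen. The third gene of that list was at 0.09 at day 7 and 0.16 at day 21 and was not called. In each contrast 1 of the 3 genes fell, where 3.64% of all probe sets fell at day 7 and 4.90% at day 21.

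**Figure D5:**
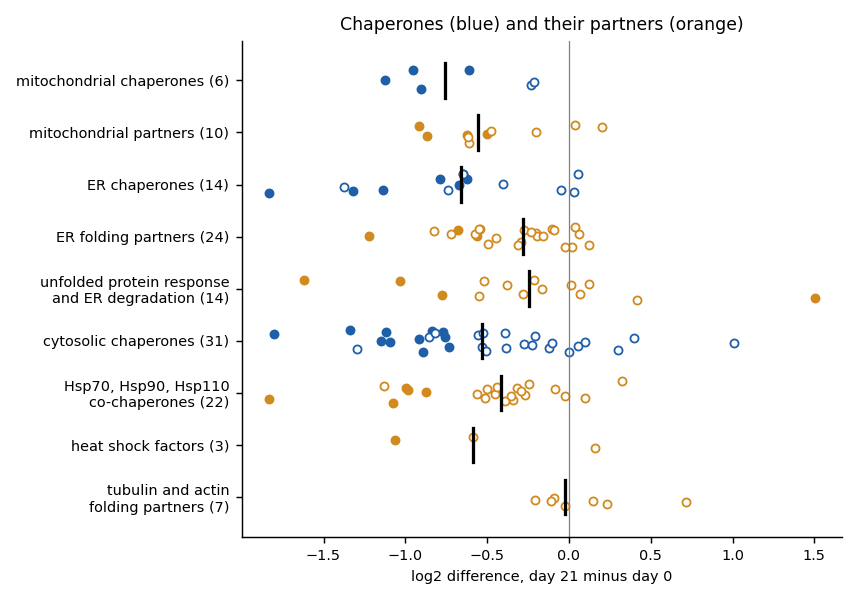
Day 21 minus day 0 log2 change of each tested chaperone gene (blue) and of each gene on the partner lists (orange). Each point is a gene, filled where the adjusted p was under 0.05, black bars are medians and the number of genes stands in parentheses. The medians of the chaperones are -0.76, -0.66 and -0.53 in mitochondria, ER and cytosol (-0.42, -0.42 and -0.57 when all probe sets of a gene, dim ones included, are averaged). The only filled point right of 0 is ATF4.

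The remaining 30 genes were called in neither contrast with day 0, and 23 of them were lower at day 21 (48.5% of all probe sets). DNAJC24, which helps to modify elongation factor 2, was at -0.58 ± 0.35 at day 7 (0.326) and -0.68 ± 0.35 at day 21 (0.226).

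Other probe sets of the same genes gave a partial check. Of the 53 genes, 21 had more than 1 probe set, and 31 of the 38 other probe sets passed the filter. In 26 of these 31 the day 21 change had the sign of the chosen probe set. For genes called at day 21, 12 of 13 other probe sets had the same sign, 4 were called in the same direction, and 0 were called in the opposite one.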

How the data were processed

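The files held 1 intensity per probe set and array (12 arrays), which the authors computed with MAS5, per the submitters' processing notes. Its version is not given in the sources used here. Deposited signals had equal trimmed means per array and were only log2-transformed here. Detection calls were not used here. Symbols came from the platform annotation table, and 52 of the 53 members were matched by Entrez identifier to RefSeq gene names with 0 differences.

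Control probe sets (124) and the lowest 40% of the other 23999 by mean log2 signal were left out. A mean per age was fitted to all 12 arrays in limma 3.58.1 (R 4.3.3) with eBayes and a mean-variance trend. An F test and the contrasts of successive ages and of day 21 with day 0 were adjusted by Benjamini-Hochberg over 14399 probe sets. The steps were tested on simulated data. The p-values measure the spread between these samples, and the number of arrays limits precision.

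The members, partner lists, markers and tests were chosen with earlier results of these data known. Named are the members past the F test, a fixed set of main chaperones, the 2 members per family with the largest day 21 change without overlap, and up to 4 partners per list past the F test. Other called members were followed too. The samples were not treated as paired by replicate number in the main fit. Over all tested probe sets, deviations in arrays of equal number had correlations of -0.20 to 0.11, with 2 of 18 pairs over 0.1. Arrays of unequal number were not compared in this way, and a pairing limited to some genes was not tested. Alternatives were other filters, normalizations, an offset, no trend, array weights, the replicate block, the spike covariate, averaging the probe sets of a gene, the compared arrays alone, and leaving out each array. The averages over a gene took in its probe sets under the filter limit. Figures used matplotlib 3.10.9.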

Additional observations from a re-analysis of the deposited data

How the results depend on the processing

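With 3 arrays per age the counts of called chaperone genes depended on the settings, while the direction of the called changes did not. The F test count of 13 was 28 with arrays scaled on the hybridization controls, 6 with no variance trend, 8 with array weights and 4 with the poly-A spike covariate, and 5 to 19 when 1 array was left out. The day 7 count of 11 was 24 on the hybridization control scale, 7 with the replicate block, 1 with the covariate (HSPA9) and 5 with only the 6 arrays compared, and 4 to 19 when 1 array was left out. The day 21 count of 21 was 32 on the hybridization control scale and 6 with only the 6 arrays, and 13 to 25 when 1 array was left out. The replicate block gave 11 in the F test and 20 at day 21. The counts of 0 in both weeks after day 7 stayed at 0 in every alternative run. The fit on 6 arrays has fewer samples, but the cause of its shift, as of the others, was not tested. Over the 32 genes followed in 2 contrasts, 1308 of 1530 alternative values kept sign and side of the threshold, 181 lost and 33 gained a call, and 8 changed sign, none of them called. Of these, 5 arose without day 0 replicate 1. When 1 array was left out, the day 7 change ran from -0.42 to 0.40 for DNAJA1, from -0.45 to 0.18 for DNAJB1, from -0.47 to 0.052 for HSPA8 and from -1.40 to 0.12 for HSPH1, and the day 21 change of DNAJB1 from -0.54 to 0.091. The others, all at day 7, were DNAJA1 with array weights (0.016), CALR with the covariate (0.19) and DNAJC3 averaged over its probe sets (0.041). The day 21 calls on HSPA9, HSPD1, MANF, HSPA13, HSP90B1 and TCP1 and the day 7 call on HSPA9 held in all 24 alternatives.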
